A study of Mus musculus with 6 samples.

Results

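The interferon-stimulated genes are the transcripts that cells switch on when type I or type III interferon, or a virus itself, is sensed. A list of 39 mouse genes of this kind was followed, each by the brightest probe set that the platform annotation pairs with its symbol alone. Such a probe set was found for 36 of the 39, out of 19936 genes tested in all, and these 36 are the members described below. Isg15 and Gbp2 share their probe sets with a second symbol and Ifi44 has no named probe set here, so these 3 were not analysed.

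Interferons made by an infected cell bind receptors on its neighbours, whose JAK kinases phosphorylate STAT proteins. With IRF9 these form a complex that binds the interferon-stimulated response element (ISRE) in the promoters of antiviral genes. Many of the induced proteins are themselves part of the circuit: RIG-I and MDA5 sense viral RNA, IRF7 raises interferon production, and USP18 dampens the receptor. Lymphoid cells often transcribe part of this programme without added interferon. Ikaros, the zinc finger transcription factor encoded by Ikzf1, is needed for lymphoid development and its gene is often lost in acute lymphoblastic leukaemia driven by BCR-ABL1.

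Expression was measured on Affymetrix arrays of total RNA from pre-B cells transformed with BCR-ABL1, a fusion kinase that drives leukaemia. The cells came from wild-type C57Bl6 mice aged 4 weeks. One group was transduced with the vector pMIG alone and the other with pMIG-IKZF1, and GFP-positive cells were sorted 3 days later, so that both groups had met the vector and carried GFP. Each group had 3 arrays, named empty vector 1 to 3 and IKZF1 1 to 3, and neither the species and isoform of the insert nor the origin of replicates from separate cultures is stated. The p-values therefore measure the spread between these arrays, which may be technical.

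Levels are log2(intensity + 1) of the deposited values, and differences are IKZF1 minus empty vector on that scale. The median intensity of an array lay between 100.2 and 107. A level was marked as background where it fell below the 95th percentile of 1194 olfactory and vomeronasal receptor genes, which was 6.10 to 6.13 in the empty vector group and 6.19 to 6.36 in the IKZF1 group. Ikzf1 read 11.85, 11.78 and 11.98 with the empty vector and 13.09, 13.14 and 13.06 with IKZF1, a 2.34-fold difference in the direction of the labels (limma, Benjamini-Hochberg adjusted p = 0.0021; 2-sided exact permutation p = 0.1, the smallest that 3 against 3 arrays allow). By their group means all 13 measured pre-B cell markers lay above background in both groups, among them Cd79a, Pax5 and Igll1, though Rag2 was at background on empty vector 2 and IKZF1 2. Of the markers of plasmacytoid dendritic cells, the cell type that makes most type I interferon, 3 of 5 lay above background by their means. Siglech, which defines that cell, was at background on all arrays (5.78 to 5.92), while Cox6a2 read 7.51 to 8.82 and was lower with IKZF1 when the replicate number was a block (-0.74, limma adjusted p = 0.16 without the block and 0.026 with it). The summed intensity of those 5 was 588, 733 and 506 in the empty vector group, lowest on empty vector 3, and 452, 535 and 445 in the IKZF1 group. Cox6a2 was the brightest of them on every array and had the same order, with 8.37, 8.82 and 7.93 under the empty vector. The other markers did not share it: Ccr9 and Pacsin1 were lowest of the empty vector group on empty vector 1, and Cd300c was highest on empty vector 3. Only Siglech, at background, was also lowest on empty vector 3. Their differences with IKZF1 ran from -0.03 for Siglech to 0.14 for Cd300c. The part of these 5 markers in the results was not tested.

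Empty vector 3 stood apart from the other arrays in these genes. Against the mean of the other empty vector arrays, all 36 members were lower on it, with a median gap of -0.75, while 49.1% of all genes tested were lower and their median gap was 0.003. A gap of 1 or more, that is at least 2-fold lower, was seen for 11 of the 36 members and for 1.91% of all genes. It was the lowest of the 6 arrays for 34 of the 36, against 24.7% of all genes. The exceptions were Ifit2 and Mx1. IKZF1 3 was likewise below the mean of the other IKZF1 arrays for 34 of 36 members, with a smaller median gap of -0.26, where 55.4% of all genes were lower.

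**Figure D1:**
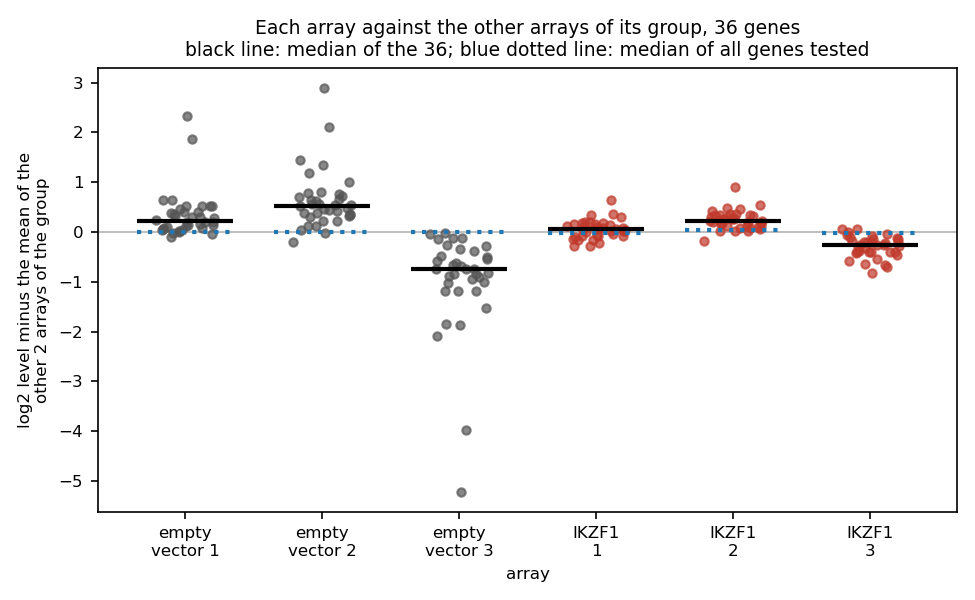
Gap of each array to the mean of the other 2 arrays of its group (vertical axis, log2 units) for the 36 members (points), with their median (black line) and the median of all genes tested (blue dotted line). The points of empty vector 3 all lie below 0, with a median of -0.75, and those of IKZF1 3 have a median of -0.26.

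The widest gaps belonged to 2 genes that were bright on the other 5 arrays. Ifitm1, which encodes a membrane protein that blocks virus entry, read 11.85 and 12.23 on empty vector 1 and 2 but 6.83 on empty vector 3, a level 37.1-fold below the mean of those 2, and 11.11, 11.77 and 10.62 with IKZF1. Its other probe set showed the same order, with 10.99, 11.60 and 6.33 in the empty vector group. Plscr1, the phospholipid scramblase gene, read 10.87, 11.04 and 6.97 under the empty vector, 15.8-fold lower on the third, and 10.72, 10.97 and 10.31 with IKZF1. Its other probe set read 10.95, 11.01 and 6.12. The RNA sensor genes Dhx58 and Ddx58 and the exonuclease gene Isg20 followed, at 4.27-fold, 3.63-fold and 3.58-fold lower on empty vector 3. Of the 13 pre-B cell markers, 9 were highest of their group on empty vector 3 and 3 were lowest (Cd79b, Vpreb2 and Bst1). Some of these orders are near ties, as for Vpreb1 (11.125 against 11.124 on empty vector 1) and Ebf1 (12.763 against 12.760). The share of all genes that were highest of their group on empty vector 3 was not counted. Rag1, which cuts immunoglobulin gene segments, was highest on it at 9.70, against 7.93 and 6.52 on empty vector 1 and 2, and Rag2 had 8.95 against 6.91 and 5.53. Both were also highest of their group on IKZF1 3, at 9.55 and 7.89. In RNA from many cells, a smaller share of cells that transcribe a gene and less transcript per cell cannot be told apart. Whether the state of the cells, their handling or the array lies behind these gaps was not tested.

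**Figure D2:**
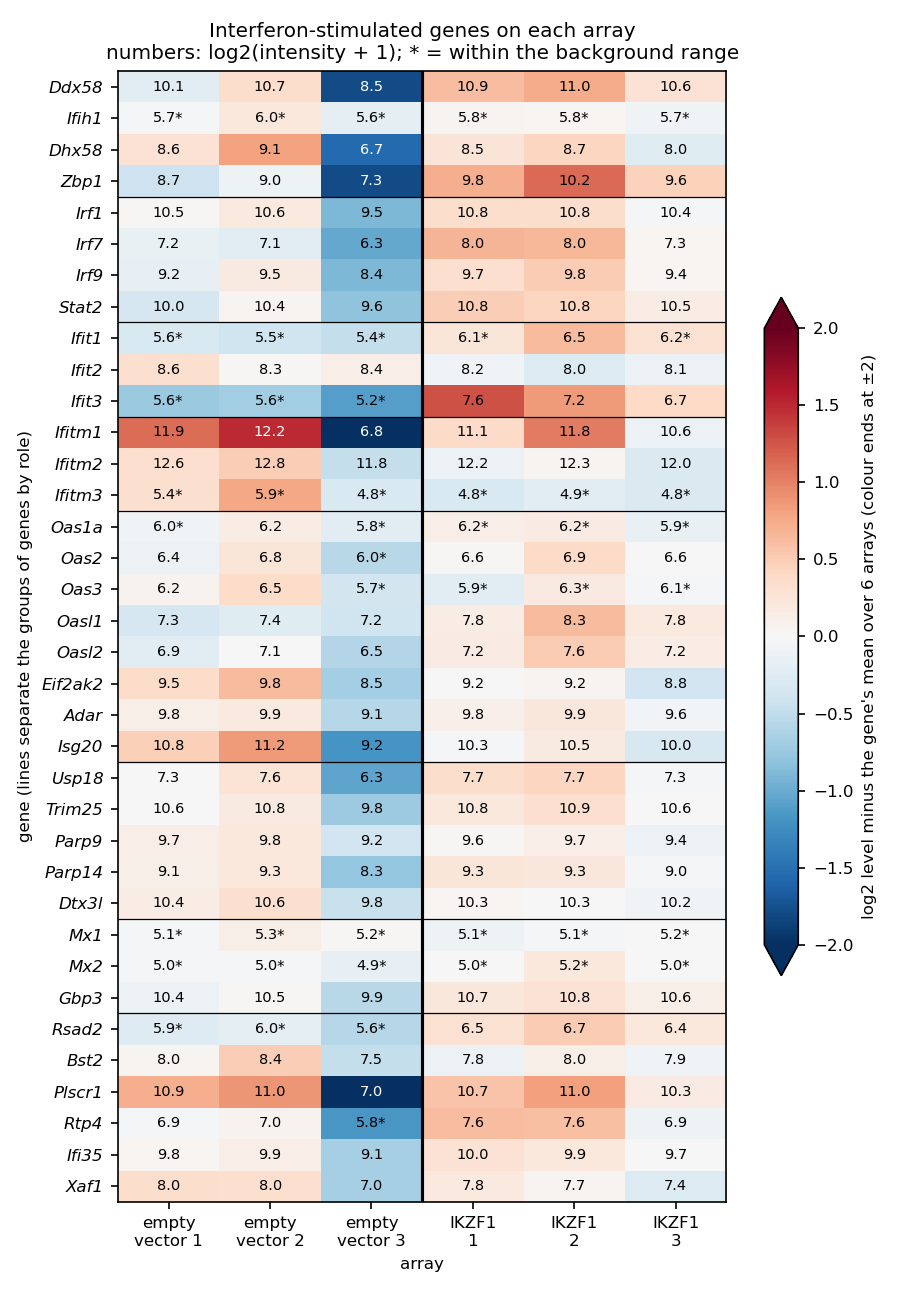
Log2(intensity + 1) of the 36 members (rows, grouped by role) on the 6 arrays (columns), printed in each cell with an asterisk where the level is within the background range; the colour gives the level minus the mean of the gene over the 6 arrays. The column of empty vector 3 is the lowest for 34 of the 36 members.

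With all 6 arrays, 2 of the 36 members rose, 0 fell and 34 did not pass the threshold of an adjusted p under 0.05 (limma, Benjamini-Hochberg adjustment over all 19936 genes). The unadjusted p was under 0.05 for 10 of them. Over all genes 1.12% passed as higher and 1.13% as lower. The members' median difference was 0.32, where the median over all genes was 0.03, and 26 of the 36 differences were above 0, against 59.2% of all genes. Without empty vector 3 the members' median was 0.05, where that of all genes was 0.04, and 19 of 36 lay above 0, against 60.3% of all genes. Then 4 members were higher and 1 was lower, where 1.81% of all genes passed as higher and 2.94% as lower, and 7 members turned their sign. Without replicate 3 of both groups 5 members were higher (Ifit3, Rsad2, Irf7, Rtp4 and Zbp1) and none lower, at 1.09% and 1.49% of all genes. Among the 28 members that a filter on background kept, 1 was higher, at 1.8% of the genes kept (1.91% lower). Between arrays of the same replicate number, the median member differed by 0.13 in pair 1, 0.059 in pair 2 and 0.70 in pair 3. The medians over all genes were 0.008, 0.064 and 0.013, so that in pair 2 the members were not above them. With IKZF1, 21, 21 and 34 of the 36 members were higher, against 52.1%, 62.3% and 53.4% of all genes.

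The replicate number used as a block in the fit gave 9 members higher and 1 lower, at a background of 3.36% and 3.85% of all genes. Arrays of the same number deviated together, as given under the processing of the data. For 10 members the IKZF1 arrays lay all above the empty vector arrays and for 1, Ifit2, all below, against 15.2% and 11.3% of all genes. The other 25 members overlapped between the groups. Members varied more among the empty vector arrays than among the IKZF1 arrays: the median SD of a member was 0.46 in the former and 0.20 in the latter (n = 3 each), and 32 of 36 had the larger SD in the empty vector group. Over all genes these median SDs were 0.09 and 0.10, and 50.8% had the larger SD in the empty vector group. The members' larger SD goes with empty vector 3, on which all 36 lay below the mean of the other empty vector arrays. For Ifit2 and Mx1 that gap was only -0.04 and -0.03.

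The IFIT genes, whose products bind foreign RNA and block its translation, held both of the members that rose. Ifit3 read 5.60, 5.65 and 5.24 with the empty vector and 7.62, 7.20 and 6.74 with IKZF1. The groups are well separated, and all empty vector values lie in the background range, so that the size of the rise rests on a background signal. The difference was 1.69 ± 0.23 (SE, n = 3 arrays per group), a 3.23-fold rise (limma adjusted p = 0.024). Ifit1 read 5.56, 5.46 and 5.39 against 6.10, 6.49 and 6.16, a rise of 0.78 ± 0.11 (1.72-fold, adjusted p = 0.029), and 5 of its 6 values are marked as background. Without empty vector 3 the differences were 1.56 for Ifit3 (adjusted p = 0.018) and 0.75 for Ifit1 (adjusted p = 0.028). Neither passed without empty vector 1 (0.13 and 0.14 for Ifit3 and Ifit1), empty vector 2 (0.057 and 0.079), IKZF1 1 (0.085 and 0.098) or IKZF1 2 (0.098 and 0.051), and Ifit1 did not without IKZF1 3 (0.092) or without replicate 3 of both groups (0.057), these being adjusted p-values. Ifit3 has a close copy nearby, Ifit3b, and cross-hybridisation was not tested.

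Ifit2, of the same gene cluster, had a difference of the opposite sign. It read 8.57, 8.28 and 8.38 with the empty vector and 8.18, 7.98 and 8.14 with IKZF1, so that the groups did not overlap. At this level, well above background, its difference was -0.31 ± 0.10 (adjusted p = 0.17, and 0.046 with the replicate block).

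**Figure D3:**
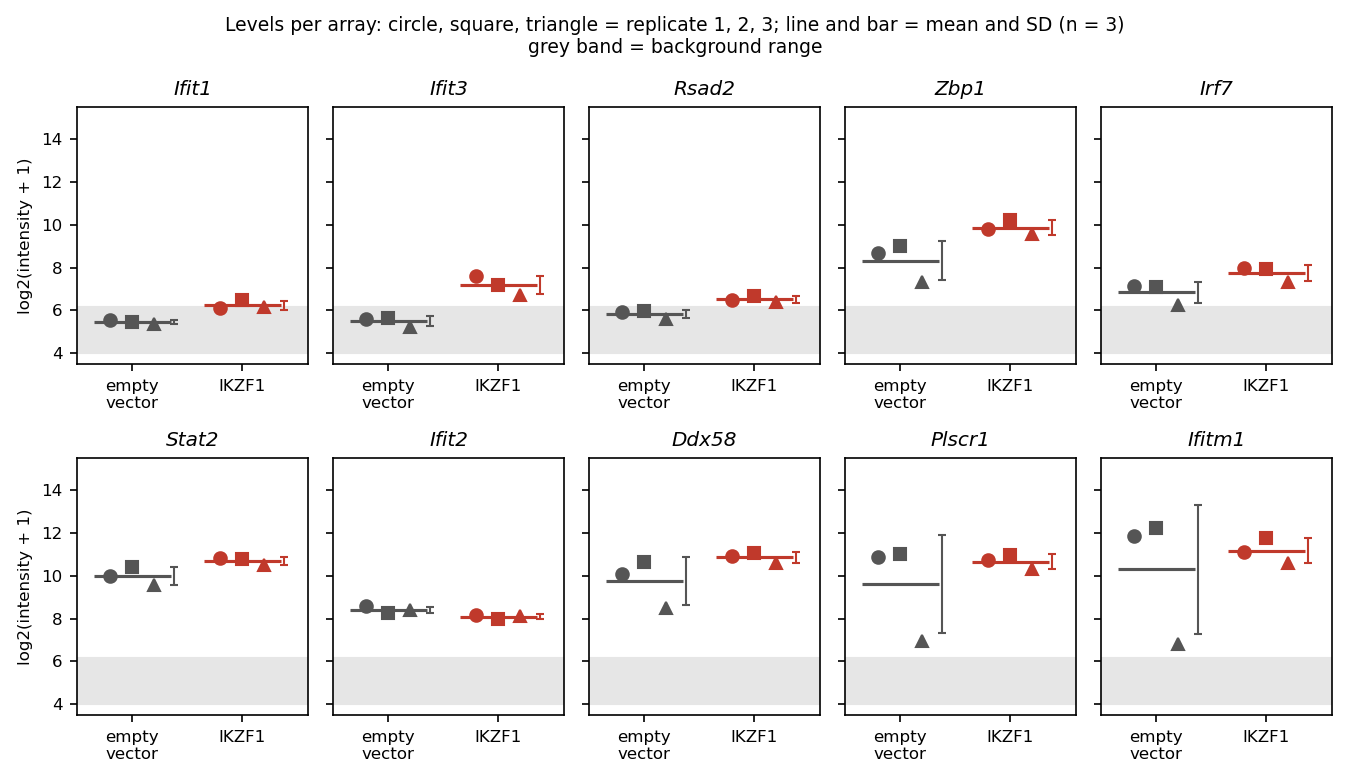
Log2(intensity + 1) of 10 members on each array (circle, square and triangle for replicate 1, 2 and 3), with the mean and SD of each group (n = 3) and the background range in grey. Ifit3 separates the groups by 1.69 from within the background range, while empty vector 3 lies far below the other 5 arrays for Plscr1 and Ifitm1.

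Promoter windows from RefSeq (build GRCm38.p6), from 250 bases before to 50 after each annotated start, were searched for the element through which the pathway acts. They are printed for the 2 members that rose, for Rsad2, whose adjusted p lay just over the threshold, and for Ifitm1, the brightest member with no match to the first motif. Capitals mark GAAA, any 2 bases, GAAA on either strand (the core of the ISRE, which reads TTTC, 2 bases, TTTC on the other strand) and TGGGAA on either strand (a core that Ikaros recognises, TTCCCA on the other strand).
Ifit3, chr19:34583279-34583578, plus strand: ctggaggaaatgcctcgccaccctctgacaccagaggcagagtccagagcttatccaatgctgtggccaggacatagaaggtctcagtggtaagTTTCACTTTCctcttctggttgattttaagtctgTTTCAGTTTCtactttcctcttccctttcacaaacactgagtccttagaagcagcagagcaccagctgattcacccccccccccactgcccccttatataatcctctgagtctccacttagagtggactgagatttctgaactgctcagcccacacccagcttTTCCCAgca
Ifit1, chr19:34640639-34640938, plus strand: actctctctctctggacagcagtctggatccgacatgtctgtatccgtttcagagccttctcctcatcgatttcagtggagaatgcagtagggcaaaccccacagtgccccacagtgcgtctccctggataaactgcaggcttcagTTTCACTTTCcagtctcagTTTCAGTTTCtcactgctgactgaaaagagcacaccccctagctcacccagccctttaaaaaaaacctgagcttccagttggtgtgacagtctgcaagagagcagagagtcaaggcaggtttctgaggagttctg
Rsad2, chr12:26456403-26456702, minus strand: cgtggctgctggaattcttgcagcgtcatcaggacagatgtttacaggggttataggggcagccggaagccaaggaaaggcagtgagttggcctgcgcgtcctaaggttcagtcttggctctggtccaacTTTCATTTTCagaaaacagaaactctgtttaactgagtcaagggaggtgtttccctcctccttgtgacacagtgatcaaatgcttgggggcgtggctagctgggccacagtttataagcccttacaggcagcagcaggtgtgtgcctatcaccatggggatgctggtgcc
Ifitm1, chr7:140967826-140968125, plus strand: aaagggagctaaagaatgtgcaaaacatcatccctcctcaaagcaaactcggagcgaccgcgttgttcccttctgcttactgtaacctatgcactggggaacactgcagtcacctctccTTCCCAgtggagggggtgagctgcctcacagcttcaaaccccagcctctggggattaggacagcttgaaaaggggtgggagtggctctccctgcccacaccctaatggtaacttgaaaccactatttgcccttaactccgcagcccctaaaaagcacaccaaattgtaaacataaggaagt

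The windows of Ifit3 and Ifit1 each hold 2 ISRE cores, whose first bases lie 156 and 122 bases before the start in Ifit3 and 104 and 85 bases before it in Ifit1. That of Rsad2 holds 1, at 120 bases before the start. The capitals at the end of the Ifit3 window and those of Ifitm1 are matches to the Ikaros core. Windows were found for 30 of the 39 listed genes. The ISRE core was matched in at least 1 window of 15 of these 30, or 50%, against 3.99% of 27025 genes in the table, and the Ikaros core in 13 of 30, or 43.3%, against 28.3%. Neither window of Ifit2 holds a match to either. The ISRE core was also matched in Bst2, Eif2ak2, Ifih1, Ifitm2, Ifitm3, Oas1a and Oas3, whose differences ran from -0.53 to 0.11. Ddx58, Gbp3 and Stat2 hold it too, with differences from 0.43 to 1.10. No window of Irf7, Oasl1 or Oasl2, which were higher with the block, holds it, and Zbp1 and Rtp4 have no window here. Whether matches go with the differences was not tested. The 2 motifs overlapped in 1 member window, that of Gbp3. A match is a run of letters and was not tested for binding here.

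Rsad2 encodes viperin, an enzyme that makes a chain-terminating nucleotide. Its levels were 5.91, 5.98 and 5.61 in the empty vector group, all at background, and 6.47, 6.68 and 6.38 with IKZF1, all above it. The difference of 0.68 ± 0.12 missed the threshold by little (adjusted p = 0.0502) and passed with the block (0.011) and without empty vector 3 (0.032), but not with any other array left out (0.078 to 0.18).

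Among the nucleic acid sensors, Zbp1 had the largest difference. It encodes a sensor of left-handed double helices that can trigger necroptosis. Zbp1 read 8.68, 9.0 and 7.31 with the empty vector and 9.82, 10.23 and 9.56 with IKZF1, with no overlap and all values above background. The difference was 1.54 ± 0.44, or 2.91-fold (adjusted p = 0.14, and 0.023 with the replicate block). Leaving out empty vector 3 made it smaller, at 1.03, with an adjusted p of 0.039; it did not pass with any other array left out (0.11 to 0.36). Ddx58, the gene of RIG-I, read 10.10, 10.65 and 8.51 against 10.93, 11.05 and 10.59. Its groups overlapped by little, and the difference of 1.10 ± 0.52 (adjusted p = 0.32) became 0.48 without empty vector 3 (adjusted p = 0.25, 95% confidence interval 0.02 to 0.94). Dhx58, the gene of the RIG-I-like regulator LGP2, had 8.57, 9.10 and 6.74 against 8.55, 8.72 and 8.05, and its difference turned from 0.30 to -0.39 without empty vector 3 (adjusted p = 0.80 and 0.42). Ifih1, the gene of MDA5, was at background on all 6 arrays.

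The transcription factors of the pathway had differences above 0 for all 4 members, and none passed with all arrays. Irf7 read 7.16, 7.10 and 6.27 with the empty vector and 7.98, 7.96 and 7.33 with IKZF1. Each IKZF1 array lay above its same-numbered partner by 0.83 to 1.06, and the difference of 0.92 ± 0.28 (adjusted p = 0.17) passed with the block (0.0067). Stat2 read 10.01, 10.41 and 9.55 against 10.85, 10.78 and 10.50, again without overlap. Its difference was 0.72 ± 0.22 (adjusted p = 0.16, and 0.030 with the block). Without empty vector 3 both kept their sign, at 0.63 for Irf7 and 0.50 for Stat2 (adjusted p = 0.14 for each), and neither passed with any 1 array left out. Without replicate 3 of both groups Irf7 passed (0.85, adjusted p = 0.013) and Stat2 did not (adjusted p = 0.11). Irf9, the DNA-binding partner of the STATs, had 0.59 (adjusted p = 0.32, and 0.05005 with the block), and Irf1 had 0.46 (adjusted p = 0.44), with 0.28 and 0.12 without empty vector 3.

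None of the 3 IFITM genes, whose products block virus entry, passed as higher with all arrays. Ifitm1 had a difference of 0.86 ± 1.39 that turned to -0.87 without empty vector 3 (adjusted p = 0.76 and 0.20). Ifitm2 was the brightest of all members, with 12.60, 12.76 and 11.80 in the empty vector group and 12.16, 12.34 and 11.98 with IKZF1. Its difference was -0.23 (adjusted p = 0.65), which leaving out empty vector 3 made -0.53 (adjusted p = 0.061), and the other probe sets had -0.23 and -0.31. Ifitm3 was at background on every array, so its lower value without empty vector 3 (-0.81, adjusted p = 0.026) was a difference within the background range.

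Of the 8 genes of RNA-directed enzymes and their relatives, 2 passed with the replicate block and none without it. Oasl1, whose product restrains the translation of Irf7, read 7.32, 7.40 and 7.24 against 7.79, 8.29 and 7.84. No value of one group reached the other, and empty vector 3 lay close to its partners. The difference was 0.65 ± 0.14 (adjusted p = 0.073), which passed with the block (0.023) and not on leaving out empty vector 3 (0.083). Oasl2 had 6.88, 7.07 and 6.49 against 7.24, 7.58 and 7.23, a difference of 0.54 ± 0.17 (adjusted p = 0.17, and 0.029 with the block). The synthetases Oas1a, Oas2 and Oas3, which make the activator of RNase L, read between 5.72 and 6.93 on all arrays, near the background limit, with differences from -0.05 to 0.29. Eif2ak2, the gene of the kinase PKR, read 9.54, 9.81 and 8.50 against 9.19, 9.23 and 8.80. Both it and Isg20, with 10.84, 11.20 and 9.18 against 10.34, 10.54 and 10.04, lay below empty vector 1 and 2 on all IKZF1 arrays and above empty vector 3. Without empty vector 3 they had -0.61 (adjusted p = 0.083) and -0.71 (adjusted p = 0.070), where they had -0.21 and -0.10 with it. Adar, the RNA-editing deaminase gene, had 0.18 (95% confidence interval -0.33 to 0.68).

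None of the 5 genes of ISG15 conjugation and the PARP group passed in any fit. Usp18, which removes ISG15 and blocks the interferon receptor, read 7.33, 7.59 and 6.27 against 7.67, 7.74 and 7.30. Its difference of 0.51 ± 0.34 was 0.11 without empty vector 3 (95% confidence interval -0.25 to 0.48). Trim25, the ubiquitin ligase gene that serves RIG-I, had 0.36, Parp14 0.29, Parp9 0.02 and Dtx3l, the ligase partner of PARP9, -0.02, with adjusted p from 0.45 to 0.97. Leaving out empty vector 3, these 4 lay between -0.24 and 0.09.

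Among the GTPases, Mx1 and Mx2, which trap viral nucleocapsids, were at background on all 6 arrays. C57BL mice carry a defective Mx1 allele. Gbp3, a guanylate-binding protein gene, read 10.38, 10.52 and 9.95 against 10.73, 10.79 and 10.61. These groups did not overlap, but the difference of 0.43 ± 0.15 did not pass (adjusted p = 0.21, and 0.054 with the block). In the remaining group, Rtp4, a chaperone gene induced by interferon, had 6.94, 7.03 and 5.81 against 7.59, 7.58 and 6.87. It lay higher with IKZF1 in each same-numbered pair, by 0.55 to 1.06. Its difference of 0.75 ± 0.36 did not pass without the block (adjusted p = 0.33) and passed with it (0.024). Leaving out empty vector 3, the difference was 0.36 for Rtp4 and 0.26 for Gbp3 (adjusted p = 0.43 and 0.17). Bst2, the gene of tetherin, had -0.05, Ifi35 0.34 and Xaf1 -0.01, with adjusted p from 0.44 to 0.99. The difference of Plscr1 turned from 1.04 ± 1.05 to -0.29 without empty vector 3.

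**Figure D4:**
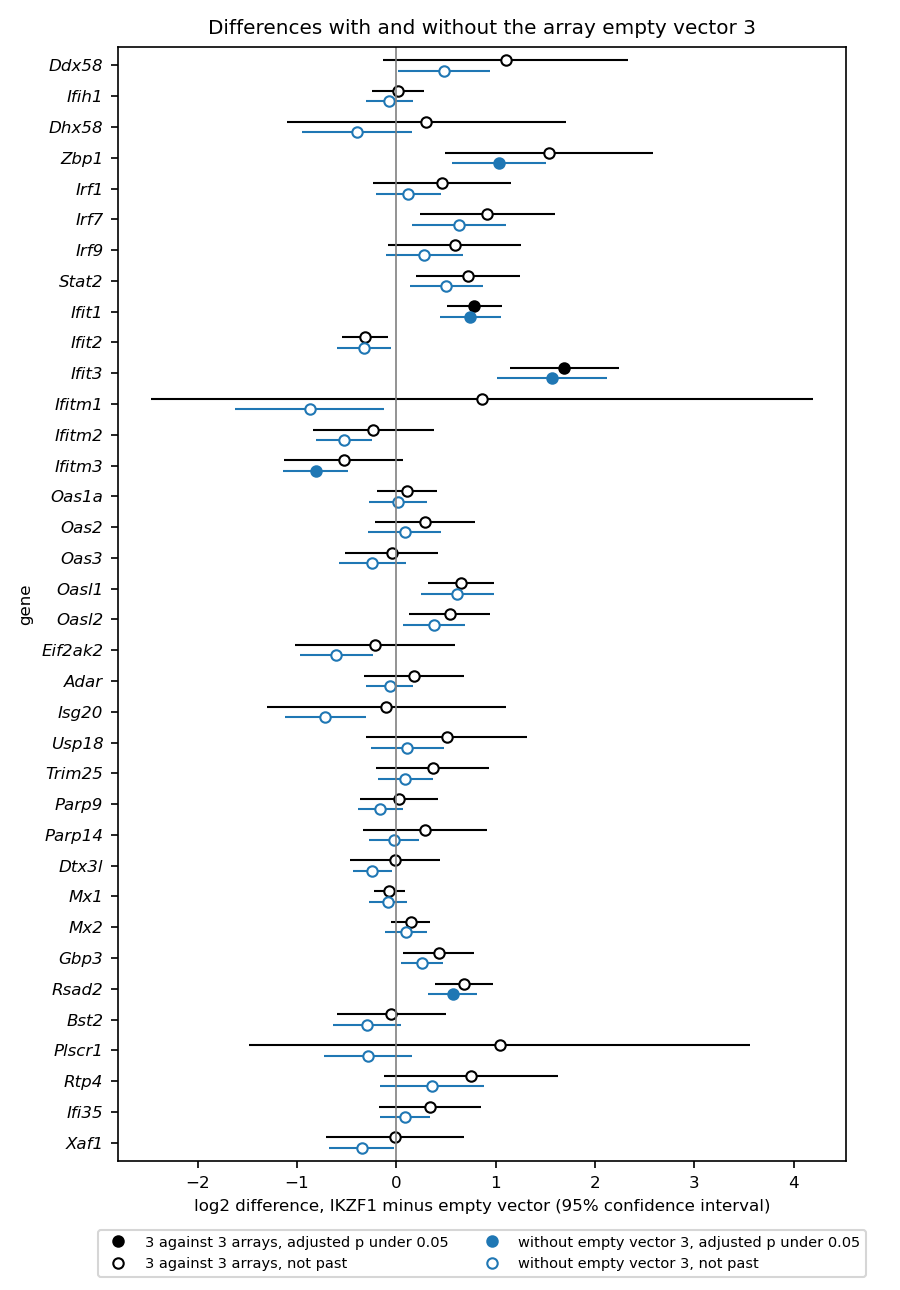
Log2 difference, IKZF1 minus empty vector (horizontal axis), of the 36 members with its 95% confidence interval, with all arrays (black) and without empty vector 3 (blue); filled points have an adjusted p under 0.05. With all arrays Ifit1 and Ifit3 are filled; without empty vector 3 Ifit1, Ifit3, Zbp1 and Rsad2 are filled above 0 and Ifitm3 below.

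The counts in the lists that follow stand against 1.12% of all genes higher and 1.13% lower with all arrays, 3.36% and 3.85% with the block, and 1.81% and 2.94% without empty vector 3. Upstream of the members, 1 of 14 interferon and receptor genes rose. Ifngr2, the second chain of the receptor for interferon gamma, read 12.45, 12.57 and 12.45 with the empty vector and 12.98, 13.12 and 12.93 with IKZF1, a rise of 0.52 ± 0.08 (adjusted p = 0.028) that differed little without empty vector 3 (0.50). Il10rb, a receptor chain for interferon lambda and interleukin 10, had 0.53 (adjusted p = 0.15, and 0.041 with the block). Both chains of the type I receptor were bright on all arrays, Ifnar1 at 10.72 to 11.33 and Ifnar2 at 10.98 to 11.75, with differences of 0.30 and -0.06 (adjusted p = 0.24 and 0.89). Among the ligands, Ifnb1 was at background on all arrays, from 4.78 to 4.98. Ifna5 and Ifnl2 lay above it on all arrays, at 8.37 to 8.91 and 8.14 to 8.68, with differences of 0.30 and 0.31 that did not pass (adjusted p = 0.22 and 0.19). Ifna2 was also above background on all arrays, nearer the limit at 6.21 to 6.74, with 0.22 (adjusted p = 0.38). Ifng, at 6.13 to 6.34, was at background only on IKZF1 2. Ifna2, Ifna5 and Ifnl2 belong to families of similar genes, so their signals are uncertain.

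Outside the members 0 of 10 JAK, STAT and IRF genes passed in limma, also when the block was used, though for 2 the unadjusted p was under 0.05. Jak1, at 0.06, and Irf3, at 0.00, had adjusted p of 0.67 and 0.99, and Irf2 and Tyk2 had 0.28 and 0.35 (adjusted p = 0.21 and 0.25). Of 13 genes of sensing upstream of interferon 0 passed in limma and the unadjusted p was under 0.05 for 1. The block brought in Tlr9, the receptor for unmethylated DNA (0.80, adjusted p = 0.13, and 0.028 with the block). Of 18 brakes on the pathway 0 passed in limma, with an unadjusted p under 0.05 for 4. The block made 2 of them higher, Nlrc5 (0.56, adjusted p = 0.10 and 0.021) and Socs1, an inhibitor of JAK kinases (0.56, adjusted p = 0.094 and 0.040), while Ptpn1, a phosphatase gene, had 0.41 (adjusted p = 0.082 and 0.0502). Ptpn2, also a phosphatase gene, had a difference below 0, at -0.29 (adjusted p = 0.25, and 0.059 with the block). Leaving out empty vector 3, Socs1 was higher (0.41, adjusted p = 0.046), and Socs3 and Tnfaip3, which dampen cytokine and NF-kB signalling, were lower (-0.63 and -0.44, adjusted p = 0.042 and 0.033).

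Of 46 further interferon-stimulated genes outside the members, 2 rose and 44 did not pass. Epsti1 read 10.09, 10.28 and 9.78 against 11.08, 11.11 and 11.01, a rise of 1.02 ± 0.13 (adjusted p = 0.019). Gbp9, a guanylate-binding protein gene, read 8.79, 8.68 and 8.79 against 9.44, 9.21 and 9.38, a rise of 0.59 ± 0.08 (adjusted p = 0.024). Both were bright in all arrays, with non-overlapping groups, and kept their call without empty vector 3 (0.88 and 0.60, adjusted p = 0.0050 and 0.022). Ube2l6, the gene of the enzyme that passes ISG15 to its ligases, had -0.77 (adjusted p = 0.072, and 0.047 with the block), and Znfx1 had 0.34 (adjusted p = 0.098 and 0.043). With the block 7 of the 46 were higher and 1 lower, and on leaving out empty vector 3 there were 3 higher and 2 lower, the lower ones being Ube2l6 (-0.90, adjusted p = 0.023) and Gbp5 (-0.69, adjusted p = 0.039). The median difference of the 46 was 0.11, and empty vector 3 was the lowest array for 29 of them, against 24.7% of all genes. Of 17 genes of the interferon gamma response and antigen processing 0 passed in limma, and for 3, which the block made higher, the unadjusted p was under 0.05: Gbp4 (0.96, adjusted p = 0.13 and 0.028), Tapbpl (0.47, adjusted p = 0.18 and 0.038) and Wars (0.30, adjusted p = 0.14 and 0.045). Gbp4 also passed without empty vector 3 (0.65, adjusted p = 0.029). Empty vector 3 was the lowest array for 13 of the 17, against 24.7% of all genes.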

How the data were processed

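The authors normalized the arrays by RMA, the robust multi-array average, as stated per the submitters' processing notes. Its version is not given in the sources used. Each deposited value is the intensity of a probe set, not in log units, from 11.1 to 23523, as the values themselves show. RMA holds a quantile step that evens out shifts common to most genes, and dim signals keep background, which understates their fold changes.

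From these, log2(intensity + 1) was computed. Of 35421 probe sets 21789 pair with 1 symbol, 1621 with several and 12011 are unnamed here. The brightest probe set of 1 symbol stood for a gene, which left 19936 genes, tested with limma 3.58.1 in R 4.3.3 (lmFit, eBayes, 2-sided, Benjamini-Hochberg adjustment over all genes, threshold 0.05, no covariate). The number of arrays limits the precision. All members are named, and of each further list up to 4 genes, those past the threshold first and then the smallest p. A few others (Ifnb1, Ifna2, Ifng, Ifnar1, Ifnar2, Jak1, Irf3, Socs3, Tnfaip3, Gbp5, Rag1, Rag2, Cd79b, Vpreb1, Vpreb2, Ebf1, Bst1, Cox6a2) were named after their values were seen. Members and lists were chosen with earlier results of these data known.

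Same-numbered arrays deviated together from their group means across genes (r = 0.24, 0.60 and 0.66, all above the limit of 0.1 set for pairs), as did empty vector 1 with IKZF1 2 (r = 0.11). Replicate numbers come from the titles, which do not say what they mark. A blocked fit on that number is given where it changes a call. Other alternatives were quantile normalization, centring on array medians, leaving out background genes, a pseudocount of 16, the mean of probe sets, a trended prior and leaving out arrays.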

Additional observations from a re-analysis of the deposited data

How the results depend on the processing

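Leaving out each array in turn gave 0 to 4 members higher, 0 to 1 lower, a median member difference of 0.05 to 0.51, 10 to 18 members with all IKZF1 arrays above and 1 to 8 below, and 21 to 360 genes higher and 2 to 587 lower over all genes. Without empty vector 3 the 4 members higher were Ifit1, Ifit3, Rsad2 and Zbp1. Without replicate 3 of both groups, an alternative added after seeing the data, 5 members were higher, against 1.09% of all genes, and the members' median was 0.12. With the replicate block 9 members were higher and 1 lower, and 670 and 768 genes in all. Arrays centred on their medians, also added after seeing the data, gave 3 members higher, and over all genes 110 higher and 279 lower. This centring shifted the median of all genes from 0.03 to -0.06. Leaving out background genes left 28 members and 1 higher, since Ifit1 was not tested. Rsad2 brought the members higher to 3 with quantile normalization, the mean of probe sets, a trended prior and centring. Ikzf1 passed under each setting run, with differences from 1.13 to 1.30.

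Some members turned sign. Quantile normalization gave -0.061 for Ifih1 and 0.014 for Dtx3l, centring -0.077 for Ifih1 and -0.074 for Parp9, and leaving out replicate 3 of both groups -0.60 for Ifitm1, -0.03 for Ifih1, -0.20 for Dhx58, -0.09 for Parp9 and -0.11 for Plscr1. Over the left-out arrays the differences ran from -0.87 to 1.83 for Ifitm1, -0.29 to 1.75 for Plscr1, -0.39 to 0.78 for Dhx58, -0.71 to 0.30 for Isg20, -0.61 to 0.048 for Eif2ak2, -0.35 to 0.16 for Xaf1, -0.30 to 0.18 for Bst2, -0.24 to 0.14 for Dtx3l, -0.24 to 0.12 for Oas3, -0.16 to 0.14 for Parp9, -0.072 to 0.13 for Ifih1, -0.025 to 0.47 for Parp14 and -0.069 to 0.32 for Adar. The causes were not tested. Signal over background limits Ifit1, Ifit3 and Rsad2, whose empty vector levels lie within background.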
